A study of Mus musculus with 74 samples.

Results

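The peaks described here lay in introns of very long mouse genes. A peak was a member where the midpoint of its 200 bp window fell in an intron of a protein-coding gene longer than 500 kb in the gencode vM1 annotation of the mm9 genome, and protocadherin genes (symbols starting with Pcdh) were left out. Of 53011 peaks of 67 KRAB zinc finger proteins (KRAB-ZFPs), 2081 (3.93%) were members, and another 15108 (28.5%) lay in introns of protein-coding genes up to 500 kb. The 197 long genes had a median length of 721 kb and were a median 99.0% intron, and each held at least 1 member. The rule used gene length and position alone and no measured height.

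Binding was measured by ChIP-seq, the immunoprecipitation and sequencing of chromatin bound by an epitope-tagged protein, in 68 samples of a KRAB-ZFP each beside 6 inputs and control ChIPs. Of the 67 KRAB-ZFPs used, 58 were expressed in F9 EC cells, a mouse embryonal carcinoma line, and 9 in mouse ES cells of the B6 strain. Each tagged protein was expressed stably from a Sleeping Beauty transposon or a lentiviral vector, and the puromycin-resistant clones of a protein were pooled, so all samples measured overexpressed protein in a mixed pool of clones. The samples fell into 5 setups: 18 proteins in F9 cells with an N-terminal 3XFLAG tag (F9 FLAG), 30 in F9 cells with a 3XHA tag (F9 HA), 10 in F9 cells with a 3XHA tag mapped with Bowtie2 and called against the control ChIP Gm14296_control (F9 HA Bowtie2), and 6 and 3 in ES cells with a C-terminal 3XHA tag over the inputs TI_399 and TI_443, as the labels of the ChIP samples write them (a control sample is titled TI_339_Input, and whether it is the former was not settled here). With 1 sample per KRAB-ZFP, values of a single protein have no replicate error, and tests were made over KRAB-ZFPs. Cell line, antibody, control and peak-calling limits changed together and cannot be told apart. The deposited table holds called peaks only, so library depth is unknown here and a missing peak is not evidence of missing binding. The tags summed over members ranged from 17 to 13842 among the 65 KRAB-ZFPs that had a member.

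KRAB-ZFPs are the largest family of mammalian repressors. Their zinc fingers read DNA, in many cases inside transposable elements, and their KRAB domain recruits KAP1 (TRIM28) and with it histone H3K9 methylation. Very long genes are in large part genes of neurons, for synaptic adhesion proteins, receptors and scaffolds, and several lie at common fragile sites, regions that break under replication stress. Their introns are AT-rich.

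The windows printed here show the DNA under members of high fold and under members called in several proteins. Sequences were read from the NCBIM37 assembly (mm9) on the plus strand. The first 5 are the single-copy members with the highest fold enrichment of each of the 5 KRAB-ZFPs with the most members. Capitals mark every match, on either strand, of the 8-base word that was most over-represented in that protein's peaks outside the long genes. For Gm14406 this word is CAAGAAAC, for Gm13251 AAAAAAAG, for Gm14419 ACTGTGGG, for Gm13225 AAAAAAAA and for Gm13152 GCCGCCGC. A window in lower case throughout holds no match, as in 4 of these 5.

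Gm14406 in Lpp, chr16:24875892-24876091: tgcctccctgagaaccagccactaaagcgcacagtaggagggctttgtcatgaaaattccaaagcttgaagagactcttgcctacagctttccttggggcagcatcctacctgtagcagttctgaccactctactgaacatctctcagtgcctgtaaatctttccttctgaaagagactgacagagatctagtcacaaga
Gm13251 in Dlgap1, chr17:70838059-70838258: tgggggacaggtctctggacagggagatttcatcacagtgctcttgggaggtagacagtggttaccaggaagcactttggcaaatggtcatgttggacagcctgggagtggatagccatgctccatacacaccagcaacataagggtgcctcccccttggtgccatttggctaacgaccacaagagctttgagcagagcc
Gm14419 in Syne1, chr10:5317076-5317275: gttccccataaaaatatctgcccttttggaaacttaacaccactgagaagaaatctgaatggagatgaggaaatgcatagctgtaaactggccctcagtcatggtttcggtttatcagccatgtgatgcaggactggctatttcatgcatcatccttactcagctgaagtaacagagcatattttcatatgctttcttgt
Gm13225 in Ctnna3, chr10:64289720-64289919: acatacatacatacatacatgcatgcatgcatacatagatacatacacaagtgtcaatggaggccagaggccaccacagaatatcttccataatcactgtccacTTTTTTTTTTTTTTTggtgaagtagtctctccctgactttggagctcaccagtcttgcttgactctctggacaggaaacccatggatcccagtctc
Gm13152 in Gm20388, chr8:123010305-123010504: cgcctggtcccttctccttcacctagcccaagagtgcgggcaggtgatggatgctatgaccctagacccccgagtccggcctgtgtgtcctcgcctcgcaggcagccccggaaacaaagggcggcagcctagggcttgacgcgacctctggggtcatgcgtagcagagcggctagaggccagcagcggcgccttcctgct

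Another 2 windows, chosen after their values were seen, are the members of highest fold that hold the word of their protein, which is ATTGCTGC for Gm13154. The Grip1 window of Gm14406 was called with 97 tags at a fold of 42.87, and the Pde4d window of Gm13154 with 146 tags at a fold of 98 and 2 matches.

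Gm14406 in Grip1, chr10:119486935-119487134: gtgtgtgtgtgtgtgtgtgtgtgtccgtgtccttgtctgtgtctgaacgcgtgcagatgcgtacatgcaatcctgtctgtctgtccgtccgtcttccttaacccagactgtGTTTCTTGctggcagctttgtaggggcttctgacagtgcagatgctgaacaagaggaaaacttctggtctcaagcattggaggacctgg
Gm13154 in Pde4d, chr13:110568801-110569000: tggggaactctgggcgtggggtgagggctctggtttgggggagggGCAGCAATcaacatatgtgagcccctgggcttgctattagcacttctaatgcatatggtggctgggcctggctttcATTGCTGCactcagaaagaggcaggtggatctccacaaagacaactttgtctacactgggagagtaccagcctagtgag

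The last 3 windows are among the 5 loci in long-gene introns called in the most KRAB-ZFPs, each given by the protein with the highest fold there. Capitals here mark the longest tandem run, in which a unit of 1 to 6 bases repeats without a mismatch, where it reached 20 bases.

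Gm13145 in Frmd4a, chr2:4357416-4357615: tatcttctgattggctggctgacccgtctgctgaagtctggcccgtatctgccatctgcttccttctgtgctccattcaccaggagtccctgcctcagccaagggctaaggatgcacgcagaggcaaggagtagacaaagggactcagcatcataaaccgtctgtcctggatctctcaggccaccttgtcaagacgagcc
Zfp872 in Park2, chr17:11995318-11995517: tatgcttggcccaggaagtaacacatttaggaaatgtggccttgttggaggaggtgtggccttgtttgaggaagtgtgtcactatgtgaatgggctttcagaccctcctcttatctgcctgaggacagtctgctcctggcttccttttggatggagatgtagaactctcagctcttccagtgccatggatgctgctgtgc
Gm13251 in Ntm, chr9:28879966-28880165: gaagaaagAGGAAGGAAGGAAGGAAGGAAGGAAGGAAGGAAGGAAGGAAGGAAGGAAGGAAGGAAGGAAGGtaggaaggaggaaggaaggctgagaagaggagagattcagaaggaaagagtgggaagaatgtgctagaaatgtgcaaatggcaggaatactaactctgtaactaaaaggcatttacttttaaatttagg

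To ask whether introns of very long genes were bound as densely as other introns, peaks were counted per megabase (Mb) of intron. Introns of long genes were bound more sparsely. They held 12.4 peaks per Mb, against 20.2 per Mb in introns of shorter genes. Within KRAB-ZFPs the log2 ratio of the 2 densities averaged -0.98 ± 0.0994 (SE, n = 67), which is 0.509-fold, and it was negative in 62 of 67 proteins (two-sided sign-flip permutation test, p = 1e-05, the smallest that 100000 resamples can give, adjusted p = 7e-05 over 7 tests). The ratio was computed with 0.5 peaks added to each count, and each protein weighed the same, however few its peaks. It averaged -0.86 with 1 peak added to each count. In the 52 proteins with at least 50 intronic peaks, a limit set after the data were seen, it averaged -0.86 too.

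The density fell with gene length in steps. Introns of genes up to 50 kb held 25.1 peaks per Mb, those of genes of 50 to 100 kb 22.2, of 100 to 200 kb 19.5 and of 200 to 500 kb 15.3. It was 12.4 per Mb for genes of 500 to 1000 kb and 12.4 for genes over 1000 kb. Without Gm20388 and Fgfr2, gene models that span many other genes, the 49 other genes over 1000 kb held 10.7 per Mb. Peaks in single-copy DNA, where the median exact 24-base word of the window occurs once in the genome, went from 19.5 per Mb in the shortest class to 7.28 in the longest. Peaks in multi-copy DNA, with a median of at least 2 copies, ranged only from 4.60 to 5.63 per Mb over the 6 classes. Only exact words were counted and no repeat annotation was used, so a repeat copy with many mismatches counts as single-copy. Without Gm14406, the protein with the most members, multi-copy peaks ranged from 5.03 per Mb in the shortest class to 2.87 for 500 to 1000 kb and 3.69 for over 1000 kb. Within the 45 KRAB-ZFPs that had both kinds of intronic peak, the log2 density ratio was -0.998 for single-copy (permutation test, p = 1e-05) and -0.68 for multi-copy peaks (p = 5e-05), so both were sparser in long genes. They had a difference of -0.31 ± 0.175 (SE, n = 45) that did not pass the test (two-sided sign-flip permutation test, p = 0.0787). These 3 tests were added after the classes were seen.

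**Figure D1:**
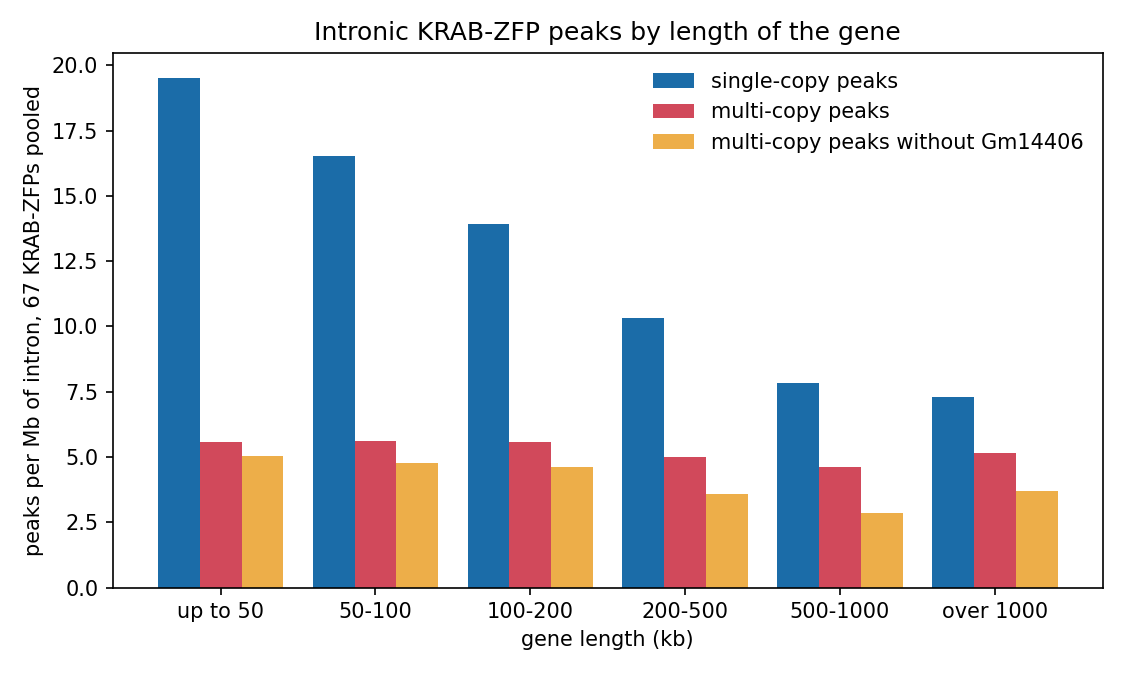
Peaks per Mb of intron (y axis) in 6 classes of protein-coding gene length (x axis, kb), pooled over the 67 KRAB-ZFPs, as bars for single-copy windows, multi-copy windows, and multi-copy windows without Gm14406. Single-copy peaks fall from 19.5 to 7.28 per Mb with length, and multi-copy peaks lie between 4.60 and 5.63 per Mb in all classes.

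Base composition and distance to gene starts moved with gene length. Introns of long genes had a GC content of 40.2%, against 43.1% in other introns. The density in long genes relative to other genes was 0.572-fold in windows under 35% GC, 0.651-fold at 35 to 40%, 0.719-fold at 40 to 45% and 0.682-fold at 45 to 50%. It was 0.951-fold at 50 to 55% and 1.14-fold at 55% and over. Windows of long genes at 55% GC and over were thus not bound more sparsely in this pooled count. These ratios are pooled over proteins and take in Gm20388 and Fgfr2. They were not computed without these gene models. With the expected number of members standardised to the GC classes, the log2 ratio was -0.65 (permutation test, p = 1e-05, n = 67), and 12 proteins then had a ratio above 0. More than 10 kb from every protein-coding gene start the ratio was -0.93, close to the value over all introns, and the steps over gene length went from 23.4 to 11.6 peaks per Mb. The part of other sequence features in the difference was not tested.

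The median KRAB-ZFP had 11 members (range 0 to 283), and members made up a median 3.47% of a protein's peaks (range 0% to 7.51%). Introns of long genes make up 6.55% of the assembled genome. Only Gm14326, Gm13212 and Gm14393 had a higher share than that, all with a 95% Wilson interval that held it, and in 40 proteins the whole interval lay below. Intervals cover counting error only. The 10 proteins with the most members held 1308 members (62.9%), beside 60.0% of all peaks, though single proteins among them departed from that in either direction.

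**Figure D2:**
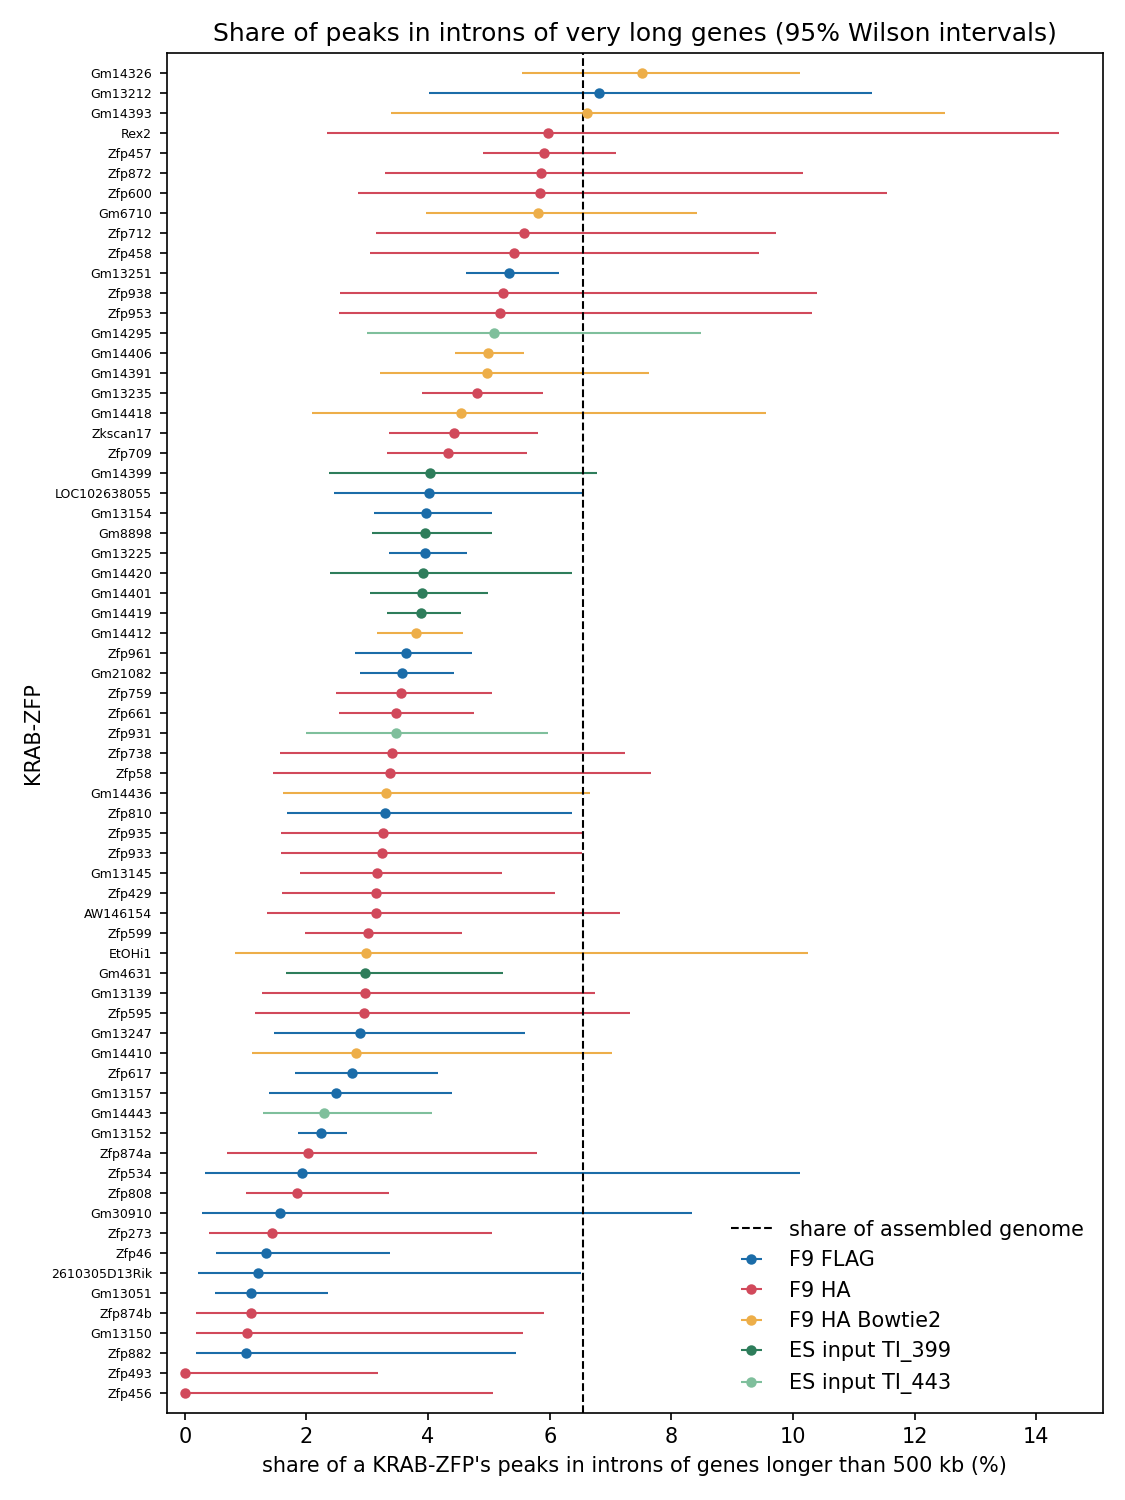
Share of each KRAB-ZFP's peaks that are members (percent), with 95% Wilson intervals, for the 67 KRAB-ZFPs by setup, and the share of the genome taken by long-gene introns (6.55%) as a line. In 40 proteins the interval lies below the line, and in none above it.

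Gm14406, expressed in F9 cells, had the most members, 283 of 5685 peaks (4.98%, 95% Wilson interval 4.44 to 5.57%), in 131 genes. Its peaks were denser in introns of long genes than in others, at 1.69 against 1.08 peaks per Mb, a log2 ratio of 0.65. Of its members, 95.4% were multi-copy, against 90.8% of its other intronic peaks, and their median fold of 26.25 equalled that of the other intronic peaks. Gm13251 followed with 176 of 3300 peaks in 110 genes, of which 5.68% were multi-copy. Gm14419, expressed in ES cells, had 152 of 3906 peaks, and 78.9% of these were multi-copy against 55.6% of its other intronic peaks. Gm14412 showed a like gap, with 106 members of which 78.3% were multi-copy against 55.3%. These 2 proteins differed in cell line and setup, and the gap was not tested for a single protein.

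Gm13225, Gm13152, Zfp457, Gm13235, Gm21082 and Gm13154 completed the first 10. Gm13225 had 141 members, with a median called width of 2220 bp against 409 bp over all members. Gm13152, whose other intronic peaks had a median GC content of 60.5%, had 116 members with a share of only 2.24% (1.87 to 2.67%), and 39 of them lay in a single gene, Gm20388. Zfp457 had 107, Gm13235 86, Gm21082 79 and Gm13154 62 members. Members of Gm21082 were 88.6% multi-copy and those of Gm13154 1.61%.

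The highest shares were those of Gm14326 at 7.51% (5.55 to 10.1%), Gm13212 at 6.81%, Gm14393 at 6.61%, Rex2 at 5.97% and Zfp457 at 5.91%. A deposited false discovery rate of 100%, estimated by swapping ChIP and control, was carried by 36 of the 39 members of Gm14326 and by all 8 of Gm14393. Over all members, 69 carried a rate of 100% and 300 (14.4%) a rate above 5%. The rates of peaks that were not members were not counted, so these numbers do not set members apart. The lowest shares were those of Zfp456, with 0 of 72 peaks, and Zfp493, with 0 of 117 peaks, which allow shares of up to 4.17% and 2.56% at a floor of 3 counts, and of up to 5.07% and 3.18% by the Wilson interval. Zfp882 followed at 1.00%, Gm13150 at 1.02% and Zfp874b at 1.09%.

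Besides Gm14406, 4 proteins had a positive log2 density ratio. It was 0.10 for Gm8898 with 60 members, of which 90.0% were multi-copy, and 0.14 for Gm14326. Gm13139 and Rex2 both had 0.57, from 5 and 4 members, where the 0.5 peaks added to each count weigh in favour of the smaller territory.

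The share of peaks that were members was compared between setups. It averaged 3.53% ± 1.73 (SD, n = 58) in F9 cells and 3.72% ± 0.772 (SD, n = 9) in ES cells, a difference smaller than the spread between proteins (two-sided permutation test, p = 0.752, adjusted p = 0.752). Where the same limits of p under 1e-10 and fold over 10 were set on all proteins, the difference turned to 1.81 percentage points in favour of F9 cells (permutation test, p = 0.00706, n = 64), so the direction depended on the calling limits. The setup F9 FLAG averaged 2.95% ± 1.56 (SD, n = 18) and the setup F9 HA 3.49% ± 1.73 (SD, n = 30). This difference did not pass the test either (permutation test, p = 0.283, adjusted p = 0.42). The HA samples of the setup F9 HA Bowtie2 were not in this test, and their mean was 4.73% ± 1.57 (SD, n = 10).

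**Figure D3:**
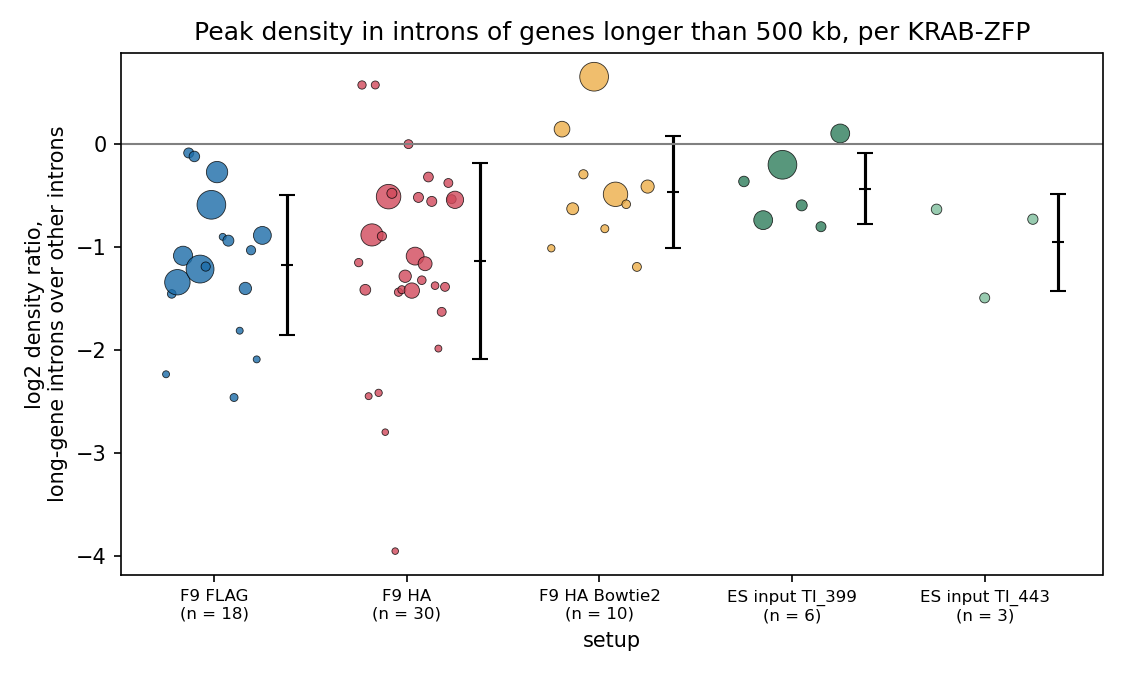
Log2 ratio of peak density in introns of long genes over introns of other protein-coding genes (y axis), by setup, with 1 point per KRAB-ZFP (larger for more members) and the mean with its SD beside them. Of 67 points 62 lie below 0, and the F9 HA Bowtie2 proteins average -0.46 and the other F9 proteins -1.15.

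The heights of members were like those of other intronic peaks. The median fold enrichment over background was 22.25 (range 4.91 to 212.12), against 21.47 for other intronic peaks. Members held 7 to 711 tags with a median of 39, against 43. In the 36 KRAB-ZFPs with at least 10 members, the log2 of the median fold differed by 0.03 ± 0.0314 (SE), 17 proteins being higher and 17 lower (sign-flip permutation test, p = 0.385, adjusted p = 0.449). The share of multi-copy peaks was 30.4% in members and 26.9% in other intronic peaks, a difference of 3.54 ± 1.97 percentage points (SE, n = 36) in the same direction in 25 proteins that did not pass the test (permutation test, p = 0.078, adjusted p = 0.182). With multi-copy set at 10 or more copies the difference was 5.81 points (permutation test, p = 0.001). Pooled over proteins, 810 members (38.9%) were multi-copy against 26.8% of other intronic peaks, and Gm14406 alone gave 270 of the 810.

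Members were poorer in GC than other intronic peaks of the same protein. Their mean GC content was 46.02% against 47.1%, a difference of -1.09 ± 0.321 percentage points (SE, n = 36), and 28 of 36 proteins were lower (sign-flip permutation test, p = 0.00124, adjusted p = 0.00434). Introns of long genes as a whole were also poorer in GC, by the values given above, and both members and other peaks were richer in GC than the introns they lay in. With the length limit raised to 1 Mb, the difference was 0.0535 points in 19 proteins and no longer passed the test (permutation test, p = 0.905). At the limit of 500 kb without Gm20388 the difference was -1.64 points (permutation test, p = 3e-05).

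The mean position of members along the gene was close to that of the intronic bases. Their mean relative position, from 0 at the gene's start to 1 at its end, was 0.509 against 0.498 for the intronic bases (difference 0.0115 ± 0.0108, SE, n = 36, sign-flip permutation test, p = 0.3, adjusted p = 0.42). With the gene cut into 5 equal parts from its start, members made up 21.8%, 18.7%, 16.7%, 19.0% and 23.7%, against 20.1%, 20.1%, 20.1%, 20.1% and 19.6% of the intronic bases. The outer parts thus held somewhat more and the middle part less than their share of bases, a pattern that a test of the mean can miss. The 5 parts were not tested. Members in introns of at least 100 kb were 56.9% of all, against 57.6% of the bases, and the median distance to the nearest exon of the gene was 26.5 kb.

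Within 10 kb of the start of their own gene lay 41 members (1.97%), on 1.10% of the intronic bases, and 11 of these lay within 1 kb. Gm13152 gave 8 of the 11, among them the highest at Dock1, a Rac guanine exchange factor, with 303 tags at a fold of 106.34, and windows in Gpr98, Rabgap1l and Cdh13. In all, 25 members (1 of them, in Arhgap26, among these 11) lay within 1 kb of the start of a different protein-coding gene nested in or overlapping the long gene. Of these 25, 17 were peaks of Gm13152, 16 lay in Gm20388 and 5 in Fgfr2.

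The median gene held 8 members (range 1 to 144), and the number followed the amount of intron (r = 0.76 across the 197 genes, as a description, since the genes share the same 67 samples). The r is a Pearson correlation of unlogged values that takes in Gm20388 and Fgfr2, and it was not computed without them. The median was 11.1 members per Mb (quartiles 7.06 and 15.6). The 51 genes over 1 Mb held 893 members, and 47 genes held members of at least 10 KRAB-ZFPs. Near the length limit, Edil3 (501.752 kb), Dock1 and Car10 just inside it held 5, 8 and 8 members, and Dnm3 (495.582 kb), Ank3 and Abca13 just outside held 6, 11 and 4 intronic peaks.

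**Figure D4:**
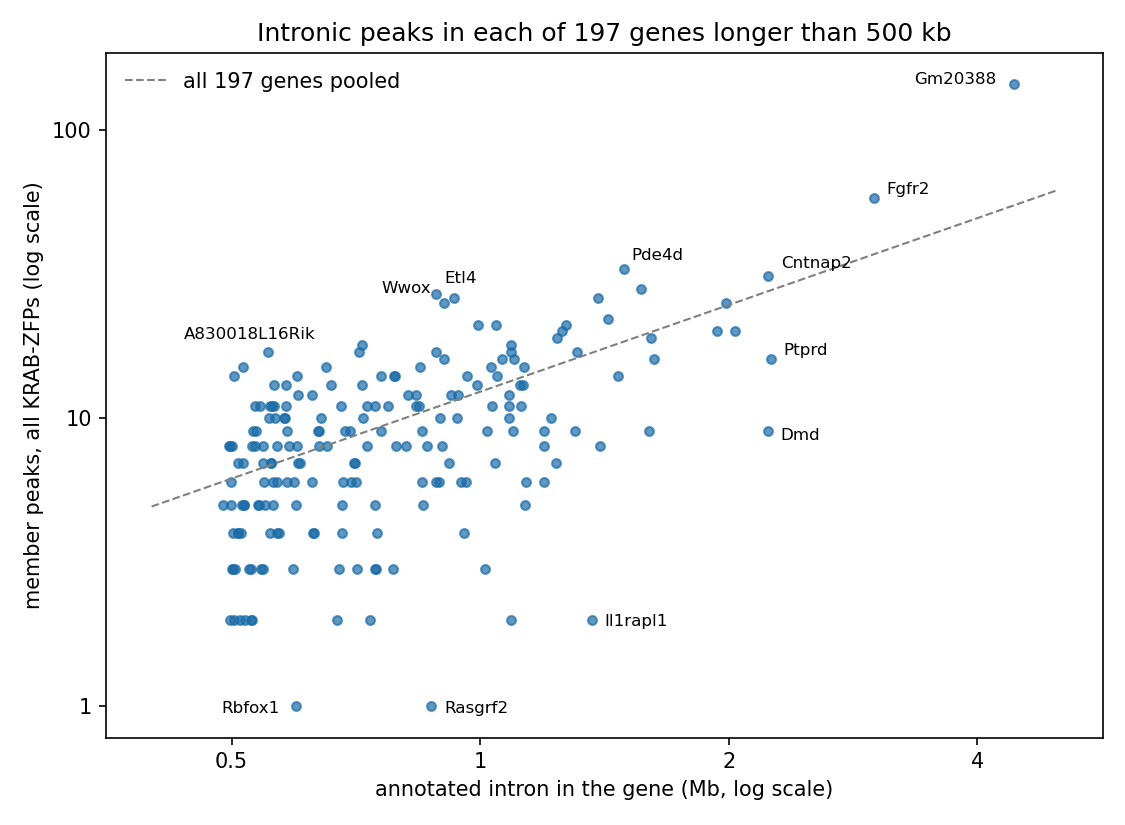
Members (y axis, log scale) against intron length (x axis, Mb, log scale) for the 197 protein-coding genes longer than 500 kb, 1 point per gene, with a dashed line at the pooled number of members per Mb. Members rise with intron length (Pearson r = 0.76 on unlogged values, Gm20388 and Fgfr2 included), and Gm20388 stands apart with 144 members.

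Gm20388 was the gene with the most members and the longest, a gene model of 4434.88 kb on chromosome 8 (positions 122434741 to 126869622, plus strand) that spans 72 other protein-coding genes. It held 144 members of 39 KRAB-ZFPs at 131 merged loci, or 32.5 members per Mb. Of the 144, 116 were single-copy, 39 were peaks of Gm13152, 11 of Zfp961 and 9 of Gm13225, and 55 lay inside another protein-coding gene. The highest fold was 161.95, for Zfp961 with 451 tags. The Gm13152 window printed above, with 439 tags and a GC content of 66%, lies in this gene 575.664 kb from its start. Fgfr2, a fibroblast growth factor receptor, is annotated here over 3009 kb with 31 protein-coding genes inside, and it held 58 members of 24 KRAB-ZFPs, 35 of them inside another protein-coding gene. Introns of these 2 gene models are thus in part promoters and introns of other genes. Without both, 1879 members were left and the log2 density ratio was -1.12 (permutation test, p = 1e-05). Of the 197 long genes 148 held no other protein-coding gene.

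Genes of cell adhesion and synapses were among those with the next most members. Cntnap2, a neurexin-like adhesion protein, held 31 members of 17 KRAB-ZFPs, 16 of them multi-copy and 7 of Gm14406. Ctnna3, which encodes alpha-T-catenin, held 28 members of 19 proteins, the highest being a Gm13157 peak at a fold of 99.19. Cntn5, a contactin, held 19, and Il1rapl2, of the interleukin-1 receptor accessory family, 21. Dlg2, a scaffold of the postsynaptic density, held 20 members of 11 proteins, and Sntg1, a syntrophin, 26 of 14 proteins in 938.404 kb. The heparan sulphate proteoglycans Gpc5 and Gpc6, neighbours on chromosome 14, held 22 and 21.

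Genes of signalling, degradation and metabolism were in the same range. Pde4d, a cyclic AMP phosphodiesterase, held 33 members of 20 KRAB-ZFPs at 22.1 per Mb, the highest being the Gm13154 window printed above. Park2, the ubiquitin ligase parkin, held 21, Wwox, a WW-domain oxidoreductase, 25 of 20 proteins, and Fhit, a dinucleoside hydrolase, 19 of 13 proteins. Macrod2, an ADP-ribose hydrolase, held 25, and Lrp1b, a lipoprotein receptor relative, 20. Agbl4, a tubulin deglutamylase, held 20, of which 17 were multi-copy and 10 of Gm14406. Auts2, a regulator of neuronal transcription, held 18 members of 13 proteins, all single-copy. Etl4 held 27. Arfip1, an ADP-ribosylation factor binding protein, held 26 in a gene model that spans 5 other protein-coding genes. These 20 genes, Gm20388 and Fgfr2 included, held 624 members (29.99%) on 19.4% of the intron, and Gm14406 had a member in 17 of them. They were picked by their number of members, so a share above that of the intron was given, and Odz4, with 18 members like Auts2, fell outside by its symbol.

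**Figure D5:**
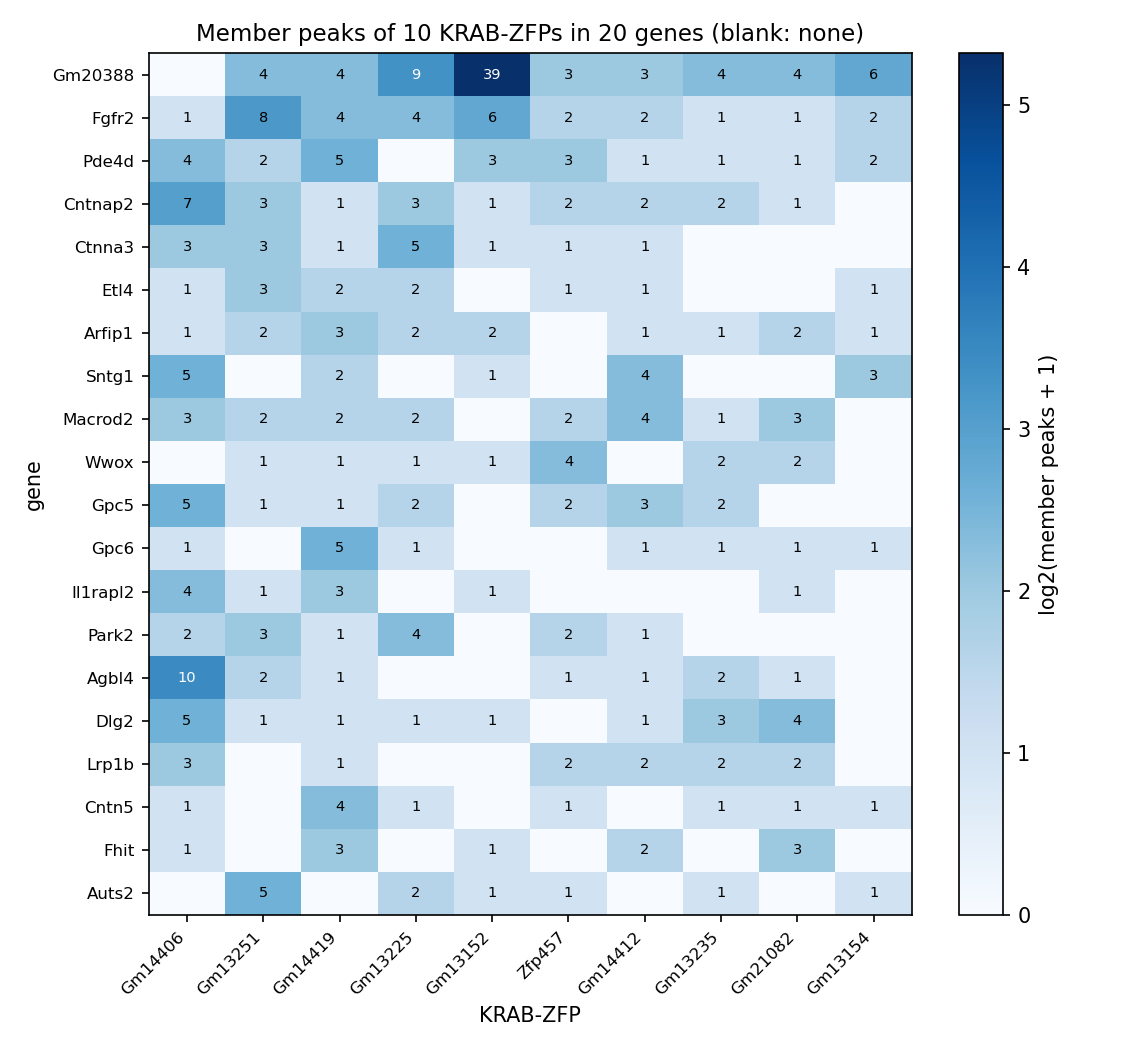
Number of members in each of the 20 genes with the most members (rows) for the 10 KRAB-ZFPs with the most members (columns), with the number printed in each cell, blank for none, and colour as log2 of the number plus 1. The cells sum to 366 members, with 39 for Gm13152 in Gm20388 and 10 for Gm14406 in Agbl4.

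Per Mb of intron, Gm20388 was followed by A830018L16Rik with 30.8 members per Mb (17 members), Etl4 with 30.5, Atrnl1 with 29.1 (15 members) and Sntg1 with 28.0. Counted as merged loci, with their exact Poisson 95% intervals, these were 29.6 per Mb (24.7 to 35.1) for Gm20388, 30.8 (17.9 to 49.2) for A830018L16Rik and 25.2 (13.4 to 43.1) for Atrnl1, so their order is not resolved at these counts. Length alone did not give many members. Ptprd, a receptor tyrosine phosphatase of 2271 kb, held 16 members at 7.12 per Mb, and Dmd, the dystrophin gene of 2257 kb, held 9 at 4.03 per Mb, of which 7 were multi-copy and 4 of Gm14406. The fewest were 1 in Rasgrf2 and 1 in Rbfox1, the latter an RNA-binding splicing factor, and the 1375 kb of Il1rapl1 held 2. These 3 genes were named after their values were seen.

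Grouped by function, genes for synaptic and neural adhesion held fewer members per Mb than the long genes as a whole. Their 27 long genes held 276 members at 9.69 per Mb, against 12.3 per Mb over all 197, Gm20388 and Fgfr2 included. Glutamate and GABA receptors were at 8.64 (7 genes, 50 members) and potassium and calcium channels with their subunits at 8.95 (10 genes, 61 members). Axon guidance genes were at 11.1, cadherins and catenins at 11.5, cyclic nucleotide and kinase signalling at 11.9, and transcription and RNA-binding factors at 11.3. Scaffold and cytoskeleton-linked proteins held 154 members in 13 genes, 7.40% of all members on 7.61% of the intron. The 15 genes at sites known as common fragile sites in human cells held 244 members at 11.3 per Mb. The 99 genes in none of these groups, Gm20388 and Fgfr2 among them, were at 14.1 per Mb. No group was tested, and the median over single genes was 8.60 per Mb for adhesion and 11.1 over all.

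The highest single members lay in other genes too. A Gm21082 peak in Grid1, a glutamate receptor of the delta class, had the largest fold of all members, 212.12 with 711 tags, in a window of 7 copies. A Gm13157 peak in Pgcp followed at 170.75 with 167 tags in a window of 40 copies, and then the Zfp961 peak in Gm20388. A Gm13157 peak in Lrp1b had a fold of 147.76 and a Zfp661 peak in Pde4b, a second cyclic AMP phosphodiesterase, one of 140.37 with 601 tags. Each of these rests on 1 sample.

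To see which sites were called in several proteins, member windows that overlapped by at least 25% were merged into 1933 loci. Of these, 110 (5.69%) were called in at least 2 KRAB-ZFPs and 26 in at least 3, against 7.45% in at least 2 for loci of other introns. All proteins of the locus came from 1 setup in 69 of the 110. Proteins of a setup share their control, and its part in these shared calls was not tested. The most frequent pair was Gm13225 with Gm13251, at 13 loci (9.22% of the members of the former and 7.39% of the latter), both FLAG samples. Gm13235 with Zfp457 shared 9 loci (10.5% and 8.41%), both HA samples of F9 cells. Setups, pairs and loci in at least 3 proteins are given for member loci only, so these numbers do not set members apart from other peaks.

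The Ntm locus, in the gene of neurotrimin, was called in Gm13145, Gm13251, Zfp759 and Zfp953, with folds of 20.57 to 28.85, and has a run of 63 bases with a unit of 4. The locus in Park2 was called in 6 proteins, of which Gm13225 is a FLAG sample, and that in Frmd4a in 6 HA samples (Gm13145, Gm13235, Zfp759, Zfp872, Zfp874b and Zfp933). The windows of these 2 loci are single-copy with no tandem run over 10 bases. In the Park2 locus Zfp458 had a deposited false discovery rate of 18.42%, and in the Frmd4a locus Zfp933 one of 10.33%.

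A tandem run of at least 20 bases was present in 20 of the 110 loci called in at least 2 proteins (18.2%, 95% Wilson interval 12.1 to 26.4%) and in 156 of the 1823 loci called in 1 (8.56%, 7.36 to 9.93%). It was present in 7 of the 26 loci called in at least 3 (26.9%, 13.7 to 46.1%) and in 6.02% of 16752 windows of 200 bases laid every 10 kb along long-gene introns. A locus of several peaks had more windows in which to show a run, and no test was made. By protein, the share of members with such a run was 29.2% for Gm14412 and 25.5% for Gm13225, against 7.95% for Gm13251. The share in the other peaks of these proteins was not counted, so these values do not set members apart.

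Neighbouring members of 1 KRAB-ZFP within 10 kb gave 46 pairs in 34 genes, at a median distance of 5368 bp. Gm21082 gave 19 of these pairs, in 18 genes, and all 19 were multi-copy at both ends. Their median distance was 6724 bp (2891 to 6876 bp), and 10 lay between 6 and 7 kb. Gm13152 followed with 6 pairs, Gm13251 with 5 and Gm14406 with 4. Of the 46 pairs, 28 had multi-copy windows at both ends. Pairs were counted among members only, so these numbers do not set members apart from other peaks. Of the other intronic peaks of Gm21082, 84.3% were multi-copy too.

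To see whether the sequence under members resembled that under a protein's other peaks, the 8-base word most over-represented in its single-copy peaks outside long-gene introns was searched in the members on both strands. Such a word is a stretch of letters and not a determined binding site. For Gm13225 AAAAAAAA was found in 107 of 141 members (75.9%, 95% Wilson interval 68.2 to 82.2%), against 10.6% of flanking windows 1 kb away, and in 1088 of its 1464 other intronic peaks. For Gm13154 ATTGCTGC was found in 24 of 62 members (38.7%, 27.6 to 51.2%), in 0 of the flanks and in 228 of its 591 other intronic peaks, at a median of 8 bp from the summit. The share in windows laid along long-gene introns was 8.41% for the first word and 0.567% for the second. For Gm14406 CAAGAAAC was found in 10 of its 13 single-copy members (76.9%, 49.7 to 91.8%), beside 55.9% of the 270 single-copy peaks in which it was chosen. It was in only 18 of all 283 members (6.36%, 4.06 to 9.83%), in 0 of their flanks and in 103 of its 804 other intronic peaks. Grip1, printed above, holds it.

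For the other 7 of the 10 KRAB-ZFPs, the word was found in 0% to 17.8% of the members. GCCGCCGC was in 16 of 116 members of Gm13152 (13.8%) and in 170 of its 1317 other intronic peaks. AAAAAAAG was in 24 of 176 members of Gm13251 (13.6%), 4.26% of their flanks and 169 of 1185 other intronic peaks. For Gm13235 it was in 7 of 86 members (8.14%), 4.65% of flanks and 80 of 711 other intronic peaks. ACACACAC was in 19 of 107 members of Zfp457 (17.8%), 6.07% of flanks and 91 of 683 other intronic peaks. ACTGTGGG was in 8 of 152 members of Gm14419, 0.329% of flanks and 51 of 782 other intronic peaks. GGGAGGCA was in 2 of 79 members of Gm21082, 1.27% of flanks and 22 of 428 other intronic peaks. CCGCCGCC was in 0 of 106 members of Gm14412, of which 23 were single-copy, and in 23 of its 666 other intronic peaks. AAAAAAAG shares 7 bases with AAAAAAAA, and GCCGCCGC and CCGCCGCC overlap likewise.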

How the data were processed

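ChIP-seq peaks of 67 KRAB-ZFPs, 1 sample each, were taken from 1 deposited table of 53255 rows under 68 names. Left out were 244 rows under 1 name that no label carries, and 1 labelled KRAB-ZFP that the table does not name. As its methods and labels say, the authors aligned reads to mm9 with Bowtie or Bowtie2, placing a read with several equal positions pseudo-randomly at 1 of them, and called peaks per sample with MACS 1.4.2. Most F9 samples kept peaks called over both input and a control ChIP. Labelled limits were p of 1e-10 or 1e-05 with a fold of 20 or 10 in F9 cells and 1e-05 without a fold limit in ES cells, and were loosened where few peaks were found. Reads placed at random are diluted among the copies of a repeat, so peaks in multi-copy DNA can be lowered or displaced. The authors deposited the tags of each peak as a raw count, a score (10 times the negative log10 of the p-value), a fold enrichment as a ratio and the false discovery rate as a percent. Deposited start, end and summit are in base pairs, and windows are 200 bp around the summit.

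Windows were placed on gencode vM1 genes of NCBIM37 (mm9). An intron was gene body outside every exon of that gene. Multi-copy meant a median of at least 2 genomic copies of the window's 24-base words, counted on both strands. Densities had 0.5 peaks added. Tests were two-sided permutation tests over KRAB-ZFPs (100000 resamples, exact where fewer regroupings exist; Python 3.11.15, scipy 1.17.1), Benjamini-Hochberg adjusted over 7 tests, and were tested on simulated data. Peaks of 1 ChIP are not replicates. With no separate cultures, p-values measure the spread between proteins. Named were the 20 genes with most members, the 5 densest, the 5 longest and those at the length limit, the 5 most shared loci (2 of them are not reported here), and the KRAB-ZFPs with the most members and extreme shares. Alternatives varied the length limit, intron definition, calling limits, setup, copies and counts. The members and lists were chosen with earlier results of these data known.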

Additional observations from a re-analysis of the deposited data

How the results depend on the processing

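Of 120 alternative values for 9 results, 93 kept their direction and their side of the threshold of 0.05, or for counts stayed within 1.5 times. The causes of the changes below were not tested. The lower density in long genes was negative under all 21 alternatives, and it missed the threshold only within the ES samples of input TI_399 (-0.43) and TI_443 (-0.95), where 3 samples cannot give an exact permutation p under 0.25. With the length limit raised to 1 Mb, the fold difference (0.0708), the multi-copy difference (4.99 points) and the position difference (0.0404) passed the threshold. At that limit the GC difference (0.0535 points) and the FLAG minus HA difference (0.0370 points) changed sign. The multi-copy difference also passed at 10 or more copies (5.81 points) and within input TI_399 (10.6 points). The GC difference missed the threshold with p under 1e-10 and fold over 20 (-0.79 points) and within F9 FLAG (-0.63), F9 HA Bowtie2 (-0.14), input TI_399 (-0.40) and input TI_443 (-2.83). The fold difference changed sign within F9 HA (-0.00899) and input TI_443 (-0.20). The position difference passed within F9 HA (0.0431) and changed sign within F9 HA Bowtie2 (-0.0103), input TI_399 (-0.0183) and input TI_443 (-0.0484). The F9 minus ES difference in share changed sign at a fold over 20 (3.25 points) and over 10 (1.81 points). The number of members was 3886 at a limit of 300 kb, 893 at 1 Mb, 1260 at p under 1e-10 and fold over 20, and 1271 without multi-copy peaks, and at those calling limits 29 loci were called in at least 2 KRAB-ZFPs.

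The summit lies at the window midpoint, so that alternative gives the same members and was not run. The settings without genes that hold 10 or more others or without Gm20388, by GC class, by copy class, over 10 kb from gene starts and at 50 or more intronic peaks were chosen after seeing the data. No paired analysis was possible because each KRAB-ZFP has 1 sample, and the replicate number 1 that all samples carry marks no shared batch. The sign-flip tests pair the values of each protein. Library depth is unknown, so sites without a peak cannot be read as unbound.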

Other observations

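The word CAAGAAAC of Gm14406 lay mostly on 1 strand relative to the gene. In the 18 members that held it, it read along the gene's coding strand in 1 and against it in 17. In the introns of shorter genes it read along the gene in 26 and against it in 75 peaks of the same protein. The members shared 1 sample, so no test was made. For the words of other proteins, members of Gm13225 had 47 along and 57 against, of Gm13251 12 and 12, of Gm13154 11 and 12, of Zfp457 9 and 10, of Gm13152 11 and 4, and of Gm14419 2 and 6. In shorter genes Gm13225 had 403 along and 646 against, Gm13251 63 and 102, Zfp457 37 and 49, and Gm14419 23 and 27. There Gm13152 had 58 along and 77 against, the other way from its members, and Gm13154 134 along and 83 against.

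By chromosome, long-gene introns held between 7.47 members per Mb on chromosome X (11 genes) and 19.3 on chromosome 8 (15 genes, Gm20388 among them). Chromosome 7, with Fgfr2, followed at 16.4, and chromosome 16 was near the lowest at 7.52.

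The 5 effects above were also compared between cell lines and setups in 15 permutation tests, and none passed after adjustment. The lowest raw p was 0.0187, for a log2 density ratio of -0.46 ± 0.543 (SD, n = 10) in F9 HA Bowtie2 samples against -1.15 ± 0.852 (SD, n = 48) in other F9 samples, with an adjusted p of 0.21.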
